A study of Mus musculus with 2 samples.

Results

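The MHC class II genes were followed through the immune cells of MC38 tumours, a mouse colon carcinoma line grown under the skin. They are 10 named genes of the 27188 listed over both libraries: the presenting chains H2-Aa, H2-Ab1 and H2-Eb1, the invariant chain Cd74, the peptide editor chains H2-DMa, H2-DMb1 and H2-DMb2, the chains of its modulator H2-Oa and H2-Ob, and the transactivator Ciita. The 2 groups held 1 library each, Control and PBM, both of CD45+ cells from tumours of C57BL/6 mice labelled WT. PBM stands for photobiomodulation, a treatment with light, given every day from day 7, and tumours of both groups were taken on day 14. The labels give no treatment for Control and no number of mice, and say that cells were pooled within a condition. Each class of cells therefore had 1 value per condition. No test between conditions was possible, and all intervals are at 95%. They describe the error of counting UMIs, or of counting cells where a share of cells is given, not the spread between animals.

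Class II molecules display peptides from endocytosed protein to CD4+ T cells. H2-Aa and H2-Ab1 form the I-A molecule, which is loaded in endosomes where Cd74, the chaperone that fills the groove, is cut away and H2-DM exchanges its remnant for peptide; H2-O binds H2-DM and restrains it. Ciita has no DNA-binding domain of its own and acts through the RFX, CREB and NF-Y factors that sit on the X, X2 and Y boxes of these promoters. B cells and dendritic cells carry class II constantly, while macrophages gain it under interferon gamma. H2-Eb1 encodes the beta chain of I-E, which mice of the C57BL/6 strain do not display because they lack its alpha chain.

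The genes of the H2 family lie on chromosome 17 of GRCm38.p6, the RefSeq annotation of the mm10 build that the submitters' notes name. From one end of this stretch to the other they are H2-Oa at 34092379 to 34095234, H2-DMa at 34119693 to 34139101, H2-DMb2 at 34143229 to 34151553, H2-DMb1 at 34153191 to 34160229, H2-Ob at 34238905 to 34245908, H2-Ab1 at 34263227 to 34269418, H2-Aa at 34282744 to 34287823 and H2-Eb1 at 34305867 to 34316674. Ciita lies on chromosome 16 at 10480014 to 10531064. The promoters of 6 of these genes are shown because they carry the boxes through which Ciita acts. Each line is 67 bases of the RefSeq window that runs from 250 bases before to 50 bases after the annotated start, read 5′ to 3′ on the gene's strand. Capitals mark exact matches to the motifs searched. The window of H2-DMb2 begins at 34144999, inside the gene interval given above, so its annotated start is not the outer end of that interval. The same holds for both windows of H2-DMa, of which no stretch is shown.
H2-Oa, chr17:34092286-34092352, plus strand: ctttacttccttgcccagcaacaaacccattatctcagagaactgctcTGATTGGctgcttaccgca
H2-DMb2, chr17:34145109-34145175, plus strand: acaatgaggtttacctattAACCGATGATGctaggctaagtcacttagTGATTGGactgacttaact
H2-DMb1, chr17:34153080-34153146, plus strand: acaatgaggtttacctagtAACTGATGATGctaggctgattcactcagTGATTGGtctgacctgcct
H2-Ob, chr17:34238798-34238864, plus strand: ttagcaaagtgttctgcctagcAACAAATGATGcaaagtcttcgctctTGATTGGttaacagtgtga
H2-Aa, chr17:34287855-34287921, minus strand: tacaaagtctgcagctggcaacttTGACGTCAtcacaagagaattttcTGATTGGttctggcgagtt
H2-Eb1, chr17:34305758-34305824, plus strand: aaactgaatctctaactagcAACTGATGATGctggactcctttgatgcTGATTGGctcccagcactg

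The Y box was searched as TGATTGG, the X box as AACNNNTGATG and the X2 box as TGACGTCA, on both strands, and no matches overlapped. Of the 7 genes with a window, 6 held the Y box within 100 bases before the start. A Y box anywhere in the 300 bases of the window, on either strand, stood in 7.82% of all 32851 mouse windows. The shares of all windows are counted in this way for each motif, by window and not by gene, and H2-DMa had 2 windows. H2-DMb2, H2-DMb1, H2-Ob and H2-Eb1 held the X box as well, a pair found in 0.0517% of all windows, while the X box alone stood in 0.615%. H2-Aa held the Y box with the X2 box, which stood in 1.79% of all windows. H2-Oa had an exact match to the Y box alone, and neither window of H2-DMa had an exact match to any motif. Looser forms of the boxes were not searched, so a missing match in any of these genes says nothing of the factors that bind there. The stretches of H2-DMb1 and H2-DMb2 were alike at 58 of 67 bases, and these neighbouring genes are near copies of each other. How reads that match both were assigned is not given in the sources used here, so their separate levels are uncertain.

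**Figure D1:**
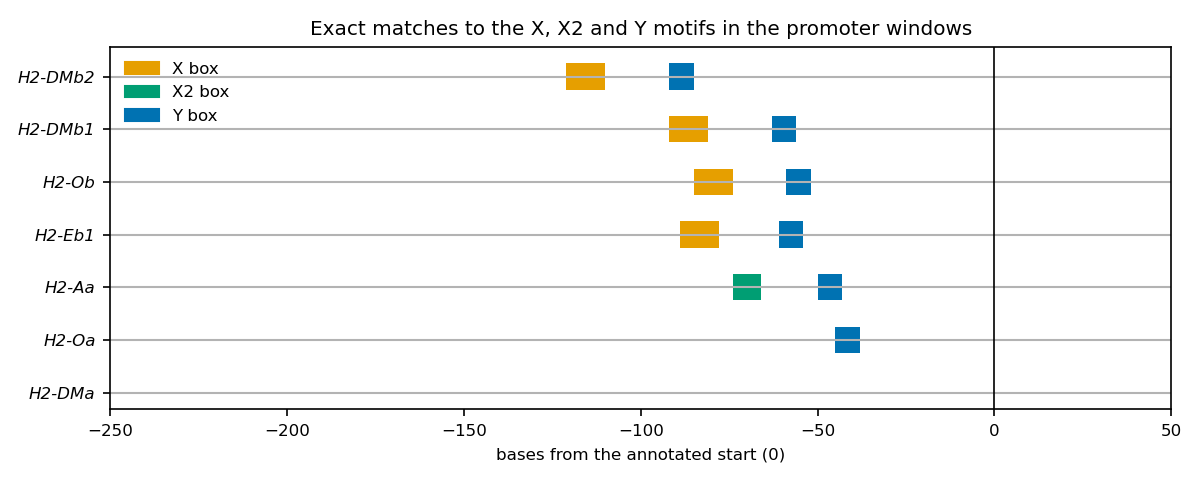
Each line is the 300-base window of a gene, with distance in bases from its annotated start on the horizontal axis; boxes mark exact matches to the X (orange), X2 (green) and Y (blue) motifs. The Y box stands before the start in 6 of 7 genes, and in 4 of them the X box lies upstream of it.

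Captured RNA molecules were counted as unique molecular identifiers (UMIs), of which Control had 104673228 over 11238 barcodes and PBM 86159897 over 13962. After filters and removal of called doublets, 11099 and 13062 cells remained. Cells were clustered without the 10 genes, and clusters were named from markers that include none of them, so no name rests on class II. B-like cells numbered 204 in Control and 5576 in PBM, and all monocyte/macrophage-like cells 5111 and 168. On re-clustering of the myeloid cells, 1036 and 27 were Nos2 or Cxcl9 macrophage-like, 1673 and 8 Folr2 or Cbr2 macrophage-like, and 808 and 32 monocyte-like. Of these, 1, 2 and 4 Control cells lay outside the monocyte/macrophage-like class, which also held unnamed and a few dendritic-like cells. The dendritic subsets held 460 and 54 cells: 260 and 19 type 2-like, 160 and 4 mature regulatory-like, and 40 and 31 plasmacytoid-like. No cluster of type 1 dendritic cells was found. A count of myeloid cells with UMIs of at least 3 of 6 type 1 markers gave 32 cells in Control and 2 in PBM, of which 11 and 2 lay in the type 2-like cluster. A level was read from at least 20 cells and a ratio between libraries from at least 30 cells in each, which leaves no ratio for either macrophage class. The labels call the material tumor cells, although it was sorted for CD45; B-like cells carried all 9 B cell markers. Of the 204 B-like cells of Control, 160 lay in a sub-cluster led by Spp1, Pf4, Arg1 and Lyz2, so every B-like level of Control rests mainly on those cells.

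Cell types that should lack a gene still held some of its UMIs: the 9 B cell markers summed to 26.5 CPM in T-like cells of Control and to 650 CPM in those of PBM, and the 10 monocyte/macrophage markers to 1453 and 42.6 CPM. T-like cells, which carry little or no class II in the mouse, held 1195 CPM of the summed class II genes in Control (1178 to 1212) and 2544 in PBM (2529 to 2558). A CPM is the UMIs of a gene summed over the cells of a class in a library, per 1000000 UMIs of that class. It is not divided by gene length, so levels are compared between classes and not between genes. The T-like levels are given as a background throughout, at median depths of 4311 and 5874 UMIs per cell.

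Type 2 dendritic-like cells held the highest summed level of the 10 genes among the classes, 43515 CPM in Control (43230 to 43802). B-like cells followed with 33258 CPM in PBM (33189 to 33326) and 29469 in Control (29043 to 29899). Nos2 or Cxcl9 macrophage-like cells held 25425 CPM in Control (25314 to 25537) and 20879 in PBM (20064 to 21718), the latter from 27 cells. The other dendritic-like classes stood below these, mature regulatory-like cells at 14099 CPM in Control (13874 to 14327) and plasmacytoid-like cells at 10889 (10458 to 11334) and 11040 CPM (10610 to 11484) in Control and PBM. Monocyte-like cells held 6405 CPM in Control (6320 to 6491) and 8431 in PBM (7936 to 8949), and Folr2 or Cbr2 macrophage-like cells 6105 in Control (6069 to 6142). Every one of these lay above the T-like background of its library.

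For H2-Aa, the I-A alpha chain, the order began with type 2 dendritic-like cells of Control at 8400 CPM (8275 to 8526), then B-like cells of PBM at 6277 (6247 to 6307) and of Control at 4965 (4792 to 5144). Nos2 or Cxcl9 macrophage-like cells came next, at 4546 CPM in Control (4499 to 4593) and 3816 in PBM (3472 to 4185), then mature regulatory dendritic-like cells at 3245 (3138 to 3355). Plasmacytoid dendritic-like cells held 2245 CPM in Control and 2224 in PBM, whose intervals overlap. Monocyte-like cells of PBM had 1364 CPM (1169 to 1581); those of Control, at 1021 (987 to 1056), and Folr2 or Cbr2 macrophage-like cells, at 1003 (989 to 1018), could not be told apart. T-like cells held 210 and 548 CPM.

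H2-Ab1, the I-A beta chain, differed in 1 place of that order: Nos2 or Cxcl9 macrophage-like cells of Control, at 7477 CPM (7416 to 7537), stood above B-like cells of both libraries, at 6562 in PBM (6532 to 6593) and 5812 in Control (5624 to 6005). Type 2 dendritic-like cells were again first with 12058 CPM (11908 to 12209). As a share of the UMIs of both I-A chains, H2-Ab1 made up 62.2% in Nos2 or Cxcl9 macrophage-like cells, 58.9% in type 2 dendritic-like and in Folr2 or Cbr2 macrophage-like cells, 53.9% and 51.1% in B-like cells of Control and PBM, and 45.4% in mature regulatory dendritic-like cells. H2-Eb1 followed the order of H2-Aa down to the monocyte-like cells of PBM, from 6403 CPM in type 2 dendritic-like cells (6294 to 6514) and 3998 in B-like cells of PBM (3975 to 4022) to 686 in Folr2 or Cbr2 macrophage-like cells (674 to 698) and 664 in monocyte-like cells of Control (637 to 692), the last pair overlapping. H2-Eb1 RNA was thus measured in every class, in a strain that does not display I-E.

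Cd74 spanned a narrower range among the first 3 places, 14291 CPM in type 2 dendritic-like cells (14128 to 14456), 13716 in B-like cells of PBM (13672 to 13760) and 12954 in B-like cells of Control (12673 to 13241). Nos2 or Cxcl9 macrophage-like cells held 8801 CPM in Control (8735 to 8867) and 7970 in PBM (7470 to 8495). Mature regulatory dendritic-like cells had 5578 CPM (5437 to 5722), plasmacytoid-like cells 4213 and 4408 with overlapping intervals, and monocyte-like cells 2698 (2643 to 2754) and 3616 (3294 to 3960). Folr2 or Cbr2 macrophage-like cells were lowest of these at 2500 CPM (2477 to 2524), above the 424 and 903 of T-like cells.

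**Figure D2:**
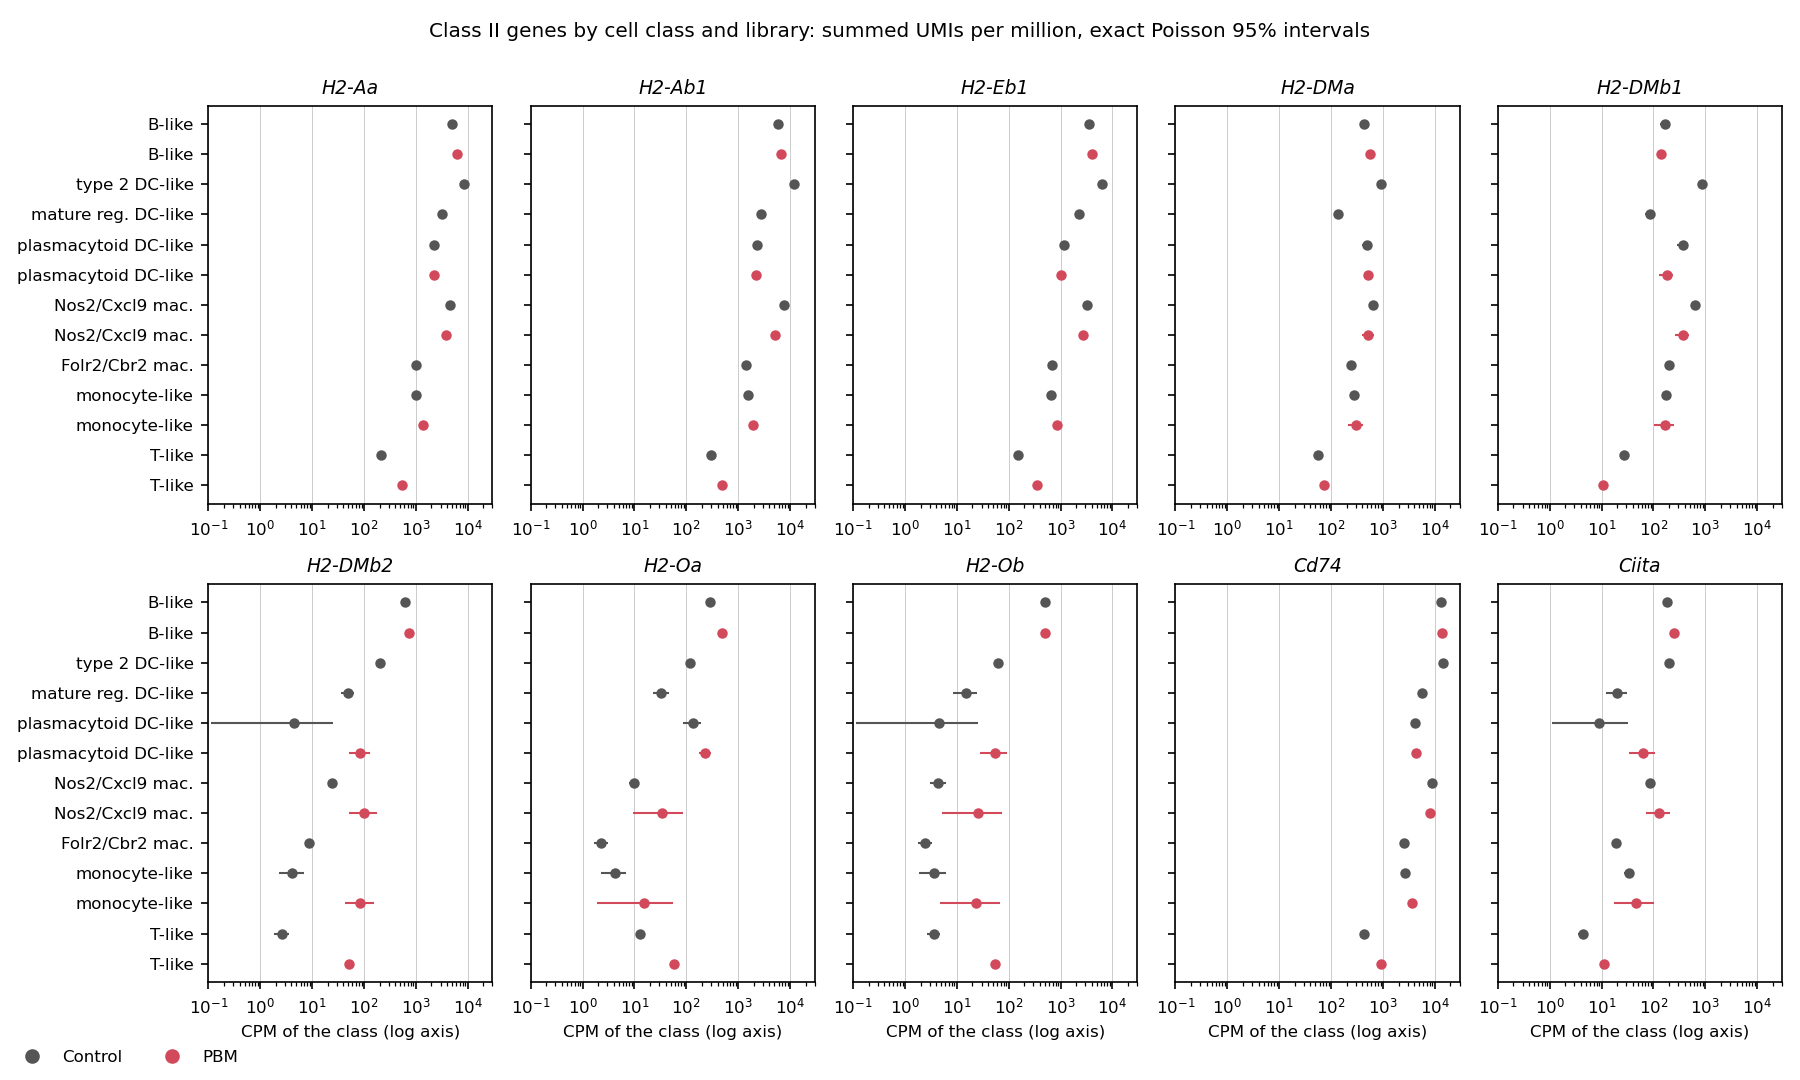
Summed UMIs per 1000000 of the class, CPM (log axis) of each of the 10 genes, by cell class (rows) and library (grey, Control; red, PBM), with exact Poisson 95% intervals; the T-like rows are the background. H2-Ob is 502 CPM in B-like and 4.33 in Nos2 or Cxcl9 macrophage-like cells of Control, where H2-Aa is 4965 and 4546, and H2-DMb1 is highest in type 2 dendritic-like cells at 843 CPM.

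The spread between single cells differed as much as the levels. Each cell was thinned to 1000 UMIs so that depth did not enter, and the UMIs of the 10 genes were added up. B-like cells formed a narrow band, with a median of 31 UMIs in Control (10th to 90th percentile 16 to 45) and 35 in PBM (23 to 47). Type 2 dendritic-like cells had the highest median, 43.5, over a range of 5 to 71.1. Nos2 or Cxcl9 macrophage-like cells of Control ran from 2 to 55 around a median of 24, and the 27 cells of PBM from 4 to 52 around 10. A tail of cells rich in class II was also seen in classes with a low median: monocyte-like cells of Control had a median of 2 and a 90th percentile of 17, and Folr2 or Cbr2 macrophage-like cells 2 and 16.

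The share of cells above the 99th percentile of T-like cells of the same library, 9 UMIs in Control and 8 in PBM, put numbers on this. It was 96.6% of B-like cells in Control (93.1 to 98.6) and 99.3% in PBM, 84.2% of type 2 dendritic-like cells (79.2 to 88.4) and 72.5% of Nos2 or Cxcl9 macrophage-like cells in Control (69.7 to 75.2). In PBM, 63.0% of the latter passed (42.4 to 80.6), an interval that overlaps that of Control. The share was 31.9% in mature regulatory dendritic-like cells (24.7 to 39.7), 18.4% in Folr2 or Cbr2 macrophage-like cells (16.6 to 20.4), and 16.3% and 21.9% in monocyte-like cells of Control (13.9 to 19.1) and PBM (9.28 to 40.0). Plasmacytoid dendritic-like cells gave 35.0% in Control (20.6 to 51.7) and 67.7% in PBM (48.6 to 83.3), which overlap narrowly. All these intervals come from counting cells within a single library, so they do not tell whether the conditions differ.

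**Figure D3:**
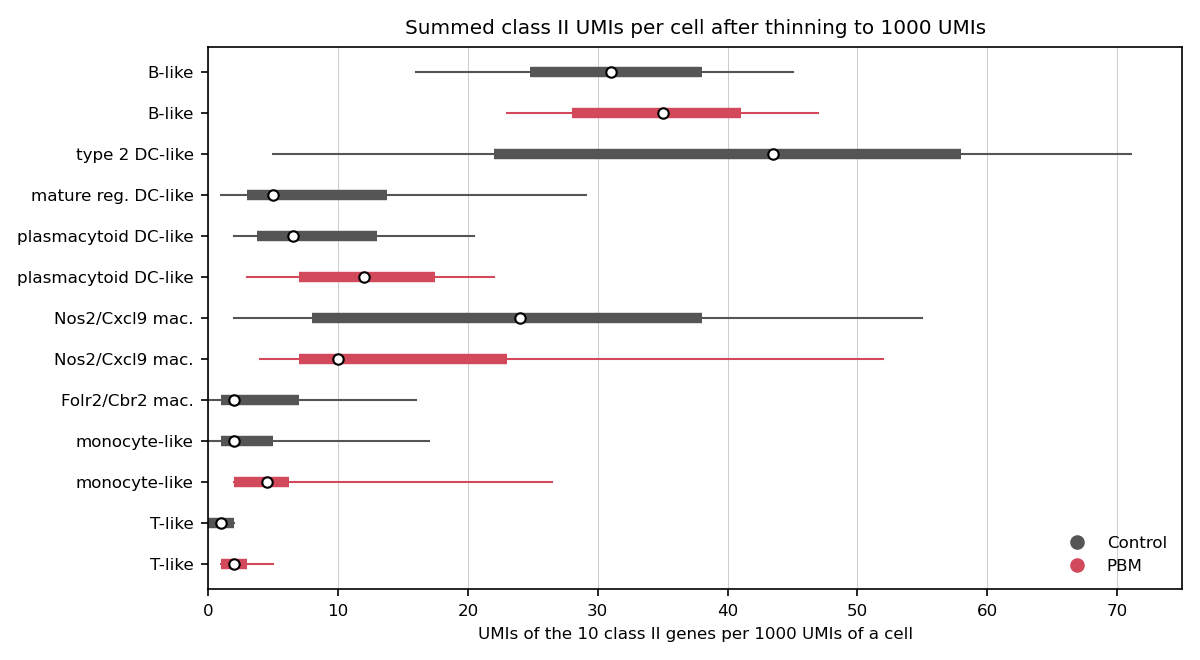
UMIs of the 10 genes per 1000 UMIs of a cell, after thinning, by class and library (grey, Control; red, PBM); circles are medians, thick bars the middle range from the 25th to the 75th percentile, thin lines the 10th to 90th percentile. B-like cells lie in a narrow band around 31 and 35, while type 2 dendritic-like and Nos2 or Cxcl9 macrophage-like cells spread from under 6 to over 50.

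Ciita, the switch of the family, was read at a low level in all classes. It stood at 252 CPM in B-like cells of PBM (246 to 258), 185 in those of Control (153 to 222) and 197 in type 2 dendritic-like cells (179 to 218), the last pair overlapping. Nos2 or Cxcl9 macrophage-like cells had 84.1 CPM in Control (77.8 to 90.8), and monocyte-like cells 33.2 (27.4 to 40.0). Mature regulatory dendritic-like cells, at 19.8 CPM (12.3 to 30.3), could not be told from Folr2 or Cbr2 macrophage-like cells, at 19.1 (17.1 to 21.2), although their summed class II level was 14099 CPM against 6105. Ciita made up 0.141% of the UMIs of the 10 genes in mature regulatory dendritic-like cells (0.087 to 0.215), against 0.453% in type 2-like cells, 0.331% in Nos2 or Cxcl9 macrophage-like cells, and 0.628% and 0.759% in B-like cells. In plasmacytoid-like cells it was 0.083% in Control (0.010 to 0.301), from 2 Ciita UMIs, and 0.565% in PBM (0.309 to 0.946). The Control interval overlaps that of mature regulatory-like cells, so a low share was not particular to them. Cells with a Ciita UMI were 34.3% and 59.2% of B-like cells of Control and PBM at median depths of 2683 and 4449 UMIs, and 20.1% and 22.0% after thinning. In T-like cells the same shares were 2.23% and 6.89%, and 0.5% and 1.16% after thinning. None of the mature regulatory dendritic-like cells kept a Ciita UMI after thinning, which allows a share of up to 2.28% with such a UMI.

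The H2-O chains and H2-DMb2 separated the classes more than the presenting chains did, while H2-DMa did not. H2-Ob, the H2-O beta chain, was 502 CPM in B-like cells of Control (448 to 561) and 506 in those of PBM (497 to 514), 63.5 in type 2 dendritic-like cells (53.1 to 75.4) and 15.1 in mature regulatory-like cells (8.63 to 24.5). In Nos2 or Cxcl9 macrophage-like cells it was 4.33 CPM (3.00 to 6.05), in Folr2 or Cbr2 macrophage-like cells 2.47 (1.80 to 3.32) and in monocyte-like cells 3.56 (1.84 to 6.22) in Control, beside 3.58 in T-like cells, so that none of these stood above background. H2-Oa, its alpha chain, was 486 CPM in B-like cells of PBM (478 to 494) and 280 in those of Control (240 to 325). Plasmacytoid dendritic-like cells came next, at 232 CPM in PBM (173 to 304) and 132 in Control (88.3 to 189), the latter overlapping the 119 of type 2-like cells (105 to 135). Plasmacytoid-like cells of Control held the alpha chain with almost no beta chain: H2-Oa made up 96.7% of their 30 H2-O UMIs (82.8 to 99.9). The share was 35.8% in B-like cells of Control (31.5 to 40.2), but 78.5% in the T-like background of Control (73.0 to 83.3). The T-like interval overlaps the plasmacytoid-like one, so a high alpha share was not particular to plasmacytoid-like cells.

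The H2-DM beta genes split along the same line. H2-DMb2 made up 79.2% of the UMIs of both beta genes in B-like cells of Control (75.3 to 82.7) and 84.1% in those of PBM (83.6 to 84.5). It made up 36.6% in mature regulatory dendritic-like cells (28.7 to 45.1), 19.7% in type 2-like cells (18.0 to 21.4) and between 1.23% and 4.23% in plasmacytoid-like, Nos2 or Cxcl9, Folr2 or Cbr2 and monocyte-like cells of Control. H2-DMb1 itself was 843 CPM in type 2 dendritic-like cells (804 to 884), 632 in Nos2 or Cxcl9 macrophage-like cells (615 to 650) and 364 in plasmacytoid-like cells (288 to 453), all of Control, but 164 in B-like cells (134 to 199). H2-DMa, the alpha chain that pairs with either, ran from 934 CPM in type 2 dendritic-like cells (893 to 977) over 629 in Nos2 or Cxcl9 macrophage-like cells (612 to 647) and 422 in B-like cells of Control (372 to 476) to 139 in mature regulatory dendritic-like cells (117 to 163).

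Set against each other, H2-O chains were 39.3% of H2-O and H2-DM UMIs in B-like cells of Control (36.5 to 42.0) and 40.4% in those of PBM (40.1 to 40.8). The share was 15% in mature regulatory, 13.8% in plasmacytoid and 8.43% in type 2 dendritic-like cells of Control, and 1.04% to 1.66% in the macrophage-like and monocyte-like classes. In PBM it was 26.8% in plasmacytoid-like, 5.69% in Nos2 or Cxcl9 macrophage-like and 6.67% in monocyte-like cells, with T-like cells at 16.3% in Control and 45.4% in PBM. The T-like value of PBM is close to that of B-like cells, and B cell markers in these PBM classes were 760 CPM in Nos2 or Cxcl9 macrophage-like and 732 CPM in monocyte-like cells, against 14.7 and 33.2 CPM in Control. Their part in the PBM shares was not tested.

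**Figure D4:**
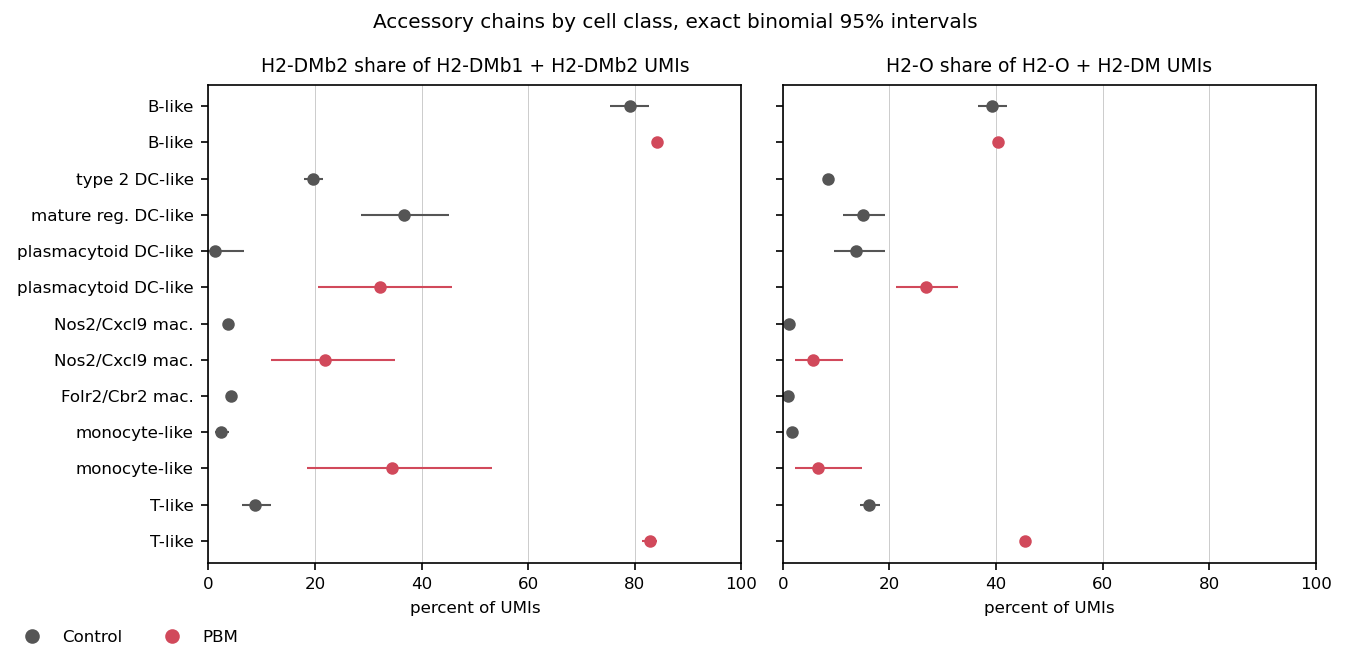
Left, H2-DMb2 as a percentage of H2-DMb1 plus H2-DMb2 UMIs; right, both H2-O chains as a percentage of H2-O plus H2-DM UMIs; rows are classes, grey Control, red PBM, with exact binomial 95% intervals. B-like cells of both libraries stand near 80% and 40%, the myeloid classes of Control below 40% and 16%, and T-like background moves from 8.78% to 82.9% and from 16.3% to 45.4% between libraries.

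Within Control, the macrophage classes differed across almost the whole family. A gene was counted as higher or lower where its level differed at least 2-fold and the interval of the log2 ratio did not hold 0. Nos2 or Cxcl9 macrophage-like cells were higher than Folr2 or Cbr2 macrophage-like cells in 9 of 10 genes and lower in 0, where 3.5% of all genes were higher and 11.8% lower. H2-Ab1 was 1437 CPM in the Folr2 or Cbr2 class (1419 to 1455) and 7477 in the Nos2 or Cxcl9 class, a log2 ratio of 2.38 (2.36 to 2.40). The log2 ratio was 2.18 for H2-Aa, 2.23 for H2-Eb1, 2.14 for Ciita (1.95 to 2.33), 1.82 for Cd74, 1.66 for H2-DMb1 and 1.35 for H2-DMa. H2-DMb2, at 1.49 (1.18 to 1.80), and H2-Oa, at 2.09 (1.53 to 2.68), rested on 194 and 77 UMIs in the Nos2 or Cxcl9 class, and H2-Oa, at 9.81 and 2.30 CPM in these classes, lay below the 13.0 CPM of T-like cells in both. H2-Ob was not counted, with a log2 ratio of 0.81 (0.12 to 1.49). The median over the 10 genes was 1.95, beside -0.21 over all genes, and the summed level differed 4.16-fold.

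Against monocyte-like cells the Nos2 or Cxcl9 class was again higher in 9 of 10 genes, where 7.91% of all genes were higher and 8.82% lower, and 3.97-fold in sum. The median log2 ratio was 1.77, and H2-Ob was the gene not counted, at 0.28 (-0.70 to 1.37). Monocyte-like cells in turn were higher than T-like cells in 7 of 10 genes, against 11.7% of all genes, and lower in 1 of 10, H2-Oa at -1.65 (-2.55 to -0.87), against 23.8%. Classical monocyte-like cells, at 6598 CPM in sum (6485 to 6711), and nonclassical ones, at 6126 (5996 to 6259), differed at least 2-fold in H2-DMa, which was 361 and 154 CPM, a log2 ratio of 1.23 (1.01 to 1.46). Ciita, at 0.91 (0.29 to 1.57), and H2-DMb1, at 0.81 (0.55 to 1.07), were also higher in the classical cells but within 2-fold, and the presenting chains and Cd74 lay between -0.16 and 0.23. H2-DMa was 1 of 7 genes with enough UMIs, where 4.9% of all genes were higher and 6.37% lower in the classical cells.

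Within the Nos2 or Cxcl9 class the 931 core cells of Control held 26356 CPM, and an Ifit-led cluster of 105 cells 18353 (18076 to 18633). Folr2 or Cbr2 clusters lay between 5020 and 7332 CPM. A myeloid cluster of 191 Control cells that stayed unnamed, led by Ocstamp, Il1r2 and Ccl17, reached 29761 CPM (29586 to 29936), above both macrophage classes.

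Among dendritic-like cells of Control, all 10 genes were lower in the mature regulatory class than in the type 2 class, where 12.9% of all genes were lower and 13.5% higher. The median log2 ratio was -2.07, beside 0.00 over all genes, and the sum differed 3.09-fold. The log2 ratio was -1.36 for Cd74, -1.37 for H2-Aa, -1.52 for H2-Eb1 and -2.16 for H2-Ab1, and -1.85 for H2-Oa, -2.07 for H2-Ob and -2.07 for H2-DMb2 (-2.52 to -1.66). The 3 widest differences were those of the regulator and of a pair of editor chains: Ciita was 197 CPM in type 2-like and 19.8 in mature regulatory-like cells, a log2 ratio of -3.32 (-4.02 to -2.68), H2-DMb1 stood at -3.31 (-3.63 to -3.01) and H2-DMa at -2.75 (-3.00 to -2.51). H2-DM chains made up 1.93% of the UMIs of the 10 genes in mature regulatory-like cells (1.72 to 2.17) and 4.56% in type 2-like cells.

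Type 2 dendritic-like and B-like cells of Control had summed levels within 1.48-fold of each other but a different makeup. H2-Ab1 (1.05), H2-DMa (1.15) and H2-DMb1 (2.36, interval 2.07 to 2.66) had higher log2 levels in the dendritic-like cells, 3 of 10 genes where 13.7% of all genes were higher. H2-DMb2 (-1.60), H2-Oa (-1.23) and H2-Ob (-2.98, interval -3.29 to -2.68) were lower, 3 of 10 where 18.7% were. Ciita did not separate these classes at this depth, with a log2 ratio of 0.09 (-0.21 to 0.40). Its B-like level rests mainly on the 160 Control cells of the Spp1-led sub-cluster, and the comparison was not read without them.

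B-like cells of Control against Nos2 or Cxcl9 macrophage-like cells gave the widest split within the family. H2-Ob stood 6.86 log2 units higher in B-like cells (6.34 to 7.41), H2-Oa 4.84 and H2-DMb2 4.66, and Ciita 1.14 (0.84 to 1.43). The B-like side, that of Ciita included, rests mainly on the 160 Control cells of the Spp1-led sub-cluster, and this comparison was not read without them. H2-DMb1 was lower by a log2 ratio of -1.94 (-2.24 to -1.66). These 4 higher and 1 lower of 10 genes stood beside 20.1% and 13.7% of all genes, and the summed level differed by only 1.16-fold. The same 4 genes were higher in type 2 dendritic-like than in Nos2 or Cxcl9 macrophage-like cells, with H2-Ob at 3.87, H2-Oa at 3.60, H2-DMb2 at 3.06 and Ciita at 1.23, and 0 were lower, where 7.16% of all genes were higher and 8.84% lower, and the sum differed 1.71-fold. In PBM, B-like cells exceeded T-like cells in 10 of 10 genes, against 9.54% of all genes, and 13.1-fold in sum. They exceeded plasmacytoid dendritic-like cells in 8 of 10, against 3.81% of all genes and 3.01-fold in sum; H2-DMa, at 0.13 (-0.13 to 0.41), and H2-DMb1, at -0.33 (-0.78 to 0.16), were the exceptions.

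Between PBM and Control, the summed class II level of all B-like cells differed little, but the cells compared lay in different clusters. On re-clustering, 160 of the 204 Control cells and 41 of the 5576 PBM cells fell into a sub-cluster led by Spp1, Pf4, Arg1 and Lyz2, genes of macrophages, while every other sub-cluster was mostly of PBM. Over all B-like cells, of the 10 genes, 0 were at least 2-fold higher and 0 lower in PBM, where 1.29% of all genes were higher and 6.69% lower. In sum the level was 29469 CPM in Control and 33258 in PBM, 1.13-fold higher, a log2 ratio of 0.17 (0.15 to 0.20). The widest difference was that of H2-Oa, 280 and 486 CPM, a log2 ratio of 0.79 (0.58 to 1.02). Ciita stood at 0.45 (0.18 to 0.73), H2-DMa at 0.43 (0.25 to 0.61), H2-Aa at 0.34 (0.29 to 0.39) and H2-DMb2 at 0.26 (0.12 to 0.41), while H2-Eb1 (0.17), H2-Ab1 (0.18) and Cd74 (0.08) were closer to 0. H2-Ob, at 0.01 (-0.15 to 0.18), and H2-DMb1, at -0.21 (-0.49 to 0.09), had intervals that hold 0. Monocyte/macrophage markers in these B-like cells summed to 1641 CPM in Control and 199 in PBM, and their part in the ratios was not tested. Without the Spp1-led sub-cluster, which leaves 44 and 5535 cells, 3 genes were at least 2-fold higher in PBM, Ciita at a log2 ratio of 1.85, H2-Oa at 1.55 and H2-DMa at 1.06, and the sum gave 0.30. Within that sub-cluster alone 0 genes passed in either direction, Ciita stood at -0.57, H2-Oa at 0.28 and the sum at -0.08. These divisions were made after the values were seen. Shares over all genes are not given for them, so their counts say nothing of the class II genes against other genes. The median over all genes was -0.25, so these ratios depend on the scaling: trimmed-mean factors add 0.20 to each, which brings H2-DMb1 to -0.01 and H2-Oa to 0.99.

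In monocyte-like cells, 808 in Control and 32 in PBM, 8 genes had enough UMIs, and 1 was higher in PBM and 0 lower, where 2.56% of all genes were higher and 1.38% lower. H2-Aa (0.42), H2-Ab1 (0.37), H2-Eb1 (0.37) and Cd74 (0.42) had log2 ratios above 0 with intervals that exclude 0 and stayed within 2-fold, and the sum gave 0.40 (0.31 to 0.48). At Leiden resolution 2.0, with 1019 and 41 cells, the direction turned for H2-Aa (-0.15), H2-Ab1 (-0.43), Cd74 (-0.004) and the sum (-0.11). The gene counted was H2-DMb2, from 4.15 CPM (14 UMIs) to 85.7 (11 UMIs), a log2 ratio of 4.37 (3.08 to 5.61). It stood beside a sum of the 9 B cell markers of 33.2 CPM in Control and 732 in PBM, where 8 of them were seen, and beside H2-DMb2 levels in T-like cells of 2.62 and 51.3 CPM. Their part was not tested. With free RNA subtracted or cells thinned, H2-DMb2 had under 20 UMIs and gave no ratio, so the call ended without a change of fold being read, and the alternatives that gave one ran from 2.84 to 4.94.

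In plasmacytoid dendritic-like cells, 40 and 31, the summed level was 10889 CPM in Control and 11040 in PBM, a log2 ratio of 0.02 (-0.06 to 0.10). H2-DMb1 was lower in PBM, 364 and 178 CPM, a log2 ratio of -1.03 (-1.61 to -0.46), and H2-DMb2 higher, from 1 UMI to 19 UMIs, a ratio of 4.22 (1.57 to 9.60). These were 1 lower and 1 higher of 8 genes, where 7.0% of all genes were lower and 3.13% higher. Ciita had 2 UMIs in Control and 14 in PBM, and H2-Ob 1 and 12, too few for a ratio by the minimum of 20 UMIs. B cell markers summed to 1722 CPM in Control, from 3 of 9 markers and with Cd79a at 0. In PBM they summed to 2139 CPM from 9 of 9, with Cd79a at 218. Most of each sum came from a single marker, at 1636 CPM in Control and 1333 in PBM, so the sums say little of the other markers. Ly6d, a B cell marker here, was itself among the leading genes of this plasmacytoid-like cluster. The part of the B cell markers was not tested.

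The pooled dendritic subsets were lower in PBM in H2-Ab1, with a log2 ratio of -1.07 (-1.15 to -1.0), and in H2-Eb1, with -1.22 (-1.33 to -1.11), 2 of 10 genes where 7.2% of all genes were lower. None of the 10 was higher, where 9.72% of all genes were. The sum was 31986 CPM in Control and 17534 in PBM, 1.82-fold lower. Both calls ended with doublets kept, after thinning and as a mean over cells, where H2-Ab1 lay between -0.54 and -0.56 and H2-Eb1 between -0.57 and -0.68. The pools were made up differently, with plasmacytoid-like cells 40 of 460 in Control and 31 of 54 in PBM, and those cells alone differed by a log2 ratio of 0.02. Type 2-like and mature regulatory-like cells, at 19 and 4 in PBM, were too few to be read there.

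Over all monocyte/macrophage-like cells, 4 of 10 genes were higher in PBM, where 5.56% of all genes were, and 0 lower, where 4.17% were. They were H2-Ob at a log2 ratio of 3.87 (3.23 to 4.46), H2-Oa at 3.21 (2.57 to 3.79), H2-DMb2 at 2.60 (2.19 to 2.98) and Ciita at 1.33 (0.88 to 1.74). A Cd79a-led cluster held 96 of these 168 PBM cells, and without it, with 72 cells left, the ratios were 2.70, 2.48, 2.52 and 1.30. With free RNA subtracted they were 1.45, 0.82, 1.09 and 1.19, and 2 of the 4 calls ended. The B cell markers summed to 16.0 CPM in Control and 1120 in PBM over the class, and their part was not tested. H2-Aa (0.16), H2-Ab1 (-0.12), H2-Eb1 (0.06) and Cd74 (0.14) stayed close to 0. In the T-like background 7 genes were higher in PBM and 1 lower, where 6.21% of all genes were higher and 19.3% lower: H2-DMb2 stood at 4.29, H2-Ob at 3.93, H2-Oa at 2.12 and H2-DMb1 at -1.36 (-1.55 to -1.17), and the sum was 2.13-fold higher. The 4 genes counted as higher in the monocyte/macrophage-like cells were also counted as higher in the T-like background, where Ciita stood at 1.36 (1.00 to 1.74).

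**Figure D5:**
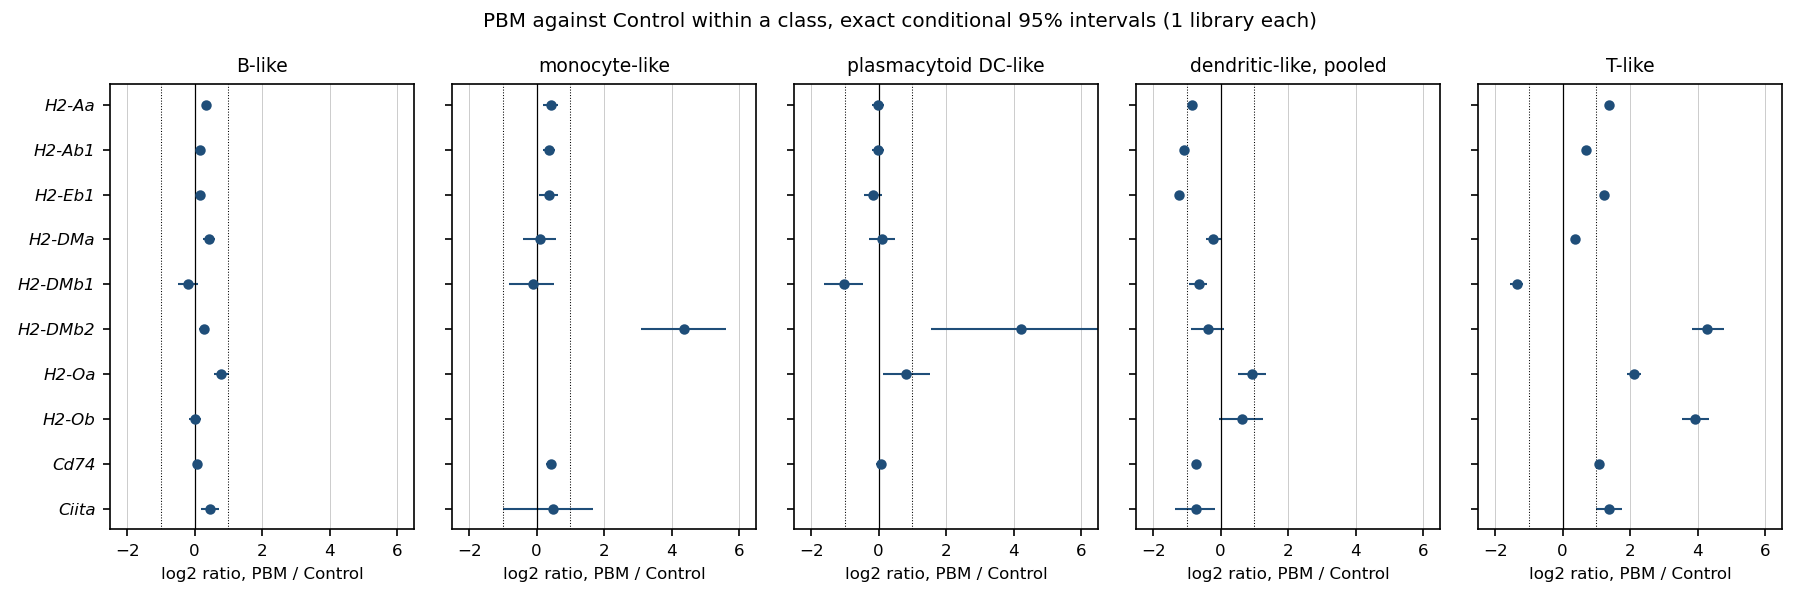
Log2 ratio of PBM to Control for each gene with enough UMIs in 5 classes, with exact conditional 95% intervals; dotted lines mark a 2-fold difference, and the upper bound of H2-DMb2 in plasmacytoid-like cells (9.60) runs past the axis. B-like points lie between -0.21 and 0.79, and H2-DMb2 is above 4 in monocyte-like, plasmacytoid-like and T-like cells.

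B-like cells of PBM were not uniform. The largest cluster, 4542 cells, held 33721 CPM in sum, an Ifit-led cluster of 246 cells 31912 and an Ebf1-led cluster of 653 cells 31981. The lowest was a cluster of 135 cells led by Egr3, Nfkbid, Il4i1 and Irf4, with Cd83 among its leading genes, at 27820 CPM (27456 to 28188); it was singled out after these values were seen. Against the largest cluster it was lower in H2-DMa, 585 and 284 CPM, a log2 ratio of -1.05 (-1.24 to -0.86), and in H2-Oa, 497 and 244 CPM, a log2 ratio of -1.03 (-1.24 to -0.83). These were 2 of 10 genes where 4.62% of all genes were lower and 7.37% higher. H2-Ob (-0.96), Ciita (-0.89) and H2-DMb2 (-0.72) lay within 2-fold with intervals below 0, and the presenting chains and Cd74 between -0.14 and -0.32.

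Other genes of the pathway were read from lists in the same way. Between the macrophage classes, the counts below stand beside the 3.5% of all genes that were higher and the 11.8% that were lower. Of the 7 genes of the promoter complex (Rfx5, Rfxank, Rfxap, Nfya, Nfyb, Nfyc and Creb1), 0 differed in either direction between the Nos2 or Cxcl9 and the Folr2 or Cbr2 classes, with a median log2 ratio of 0.07. On the route from interferon gamma to Ciita, Socs1 (1.85), the feedback inhibitor, and the kinase Jak2 (1.22) were among the genes higher in the Nos2 or Cxcl9 class, and 0 were lower. Among 7 genes that cut or reduce antigen, 3 were lower there, the proteases Ctsl (-1.61), Lgmn (-1.46) and Ctsb (-1.38), and 0 higher. Of 7 genes of turnover and co-stimulation, 1 was higher, the co-stimulatory receptor Cd40 (1.65), and 1 lower, Cd83 (-1.07).

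In mature regulatory against type 2 dendritic-like cells, 6 of these 7 genes had enough UMIs. Cd83 (2.73), the co-stimulatory ligand Cd80 (1.28) and Cd40 (1.08) were higher, while March1, the ligase that marks class II for degradation, was lower (-3.17). In the promoter complex Creb1 was higher (1.22) and Nfyb lower (-1.03), Jak2 was the 1 gene of the interferon route that was higher (1.14), and 0 of 7 processing genes differed. The shares over all genes for this comparison were 13.5% higher and 12.9% lower. B-like cells held 6 of 7 processing genes at a lower level than Nos2 or Cxcl9 macrophage-like cells, where 13.7% of all genes were lower, with Ctsc at -2.86 and Ctsd at -2.73. Between PBM and Control, B-like cells differed in 0 of 7 promoter complex genes and were lower in 2 of 8 genes of the interferon route, Jak2 (-1.01) and Socs1 (-1.13), in 3 of 7 processing genes, Ctsl (-3.54), Ctsb (-1.63) and Ctsd (-1.29), and in 1 of 5 genes of turnover and co-stimulation, Cd86 (-1.39), with 0 genes of the lists higher, where 6.69% of all genes were lower and 1.29% higher. The 10 monocyte/macrophage markers in these B-like cells were 1641 CPM in Control and 199 in PBM, and their part in the protease values was not tested.

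H2-Eb2, a further beta chain gene that is no member of the 10, followed the B cell pattern, at 150 and 121 CPM in B-like cells of Control and PBM, 32.1 in mature regulatory and 7.82 in type 2 dendritic-like cells, and 0.51 in Nos2 or Cxcl9 macrophage-like cells. It was the class II gene that went the other way in dendritic-like cells, higher in the mature regulatory than in the type 2 class by a log2 ratio of 2.04 (1.14 to 2.99), from 34 and 16 UMIs. T-like cells held 0.32 CPM of it in Control and 10.3 in PBM.

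Over 14 class-by-library units of at least 50 cells, genes were ranked by the Pearson correlation of log2(CPM + 10) with the mean of H2-Aa, H2-Ab1, H2-Eb1 and Cd74, among 5051 genes at 50 CPM or more in some unit. The units share 2 libraries, and the values are a description. H2-DMa ranked 5 with r = 0.94 and Ciita 6 with r = 0.93. H2-DMb1 (r = 0.78, rank 23), H2-DMb2 (0.75, rank 33), H2-Oa (0.62, rank 80) and H2-Ob (0.58, rank 115) followed the presenting chains less closely. The 10 other genes most alike were Cd40 (0.89), Fgd2 (0.89), Ly86 (0.88), Wdfy4 (0.87), Plekho1 (0.87), Lmo2 (0.85), Ctsh (0.84), Ifi30 (0.83), Zbtb18 (0.83) and Ppm1m (0.82).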

How the data were processed

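Single-cell RNA libraries of CD45+ cells, 1 Control and 1 PBM, were analysed. The values as deposited are whole UMI counts for each gene and barcode, not normalized, per the file headers and the values themselves. The submitters' processing notes name Cell Ranger 7.2.0 and mm10, whereas the matrix headers name PISA 0.12; which program made the counts is not settled. Barcode names are cell numbers, of which 1991 occur in both libraries; they are names, not sequences, so shared cells could not be looked for. Median UMIs per barcode were 5622 in Control and 5144 in PBM.

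A filter at 500 UMIs, 200 genes and 10% mitochondrial UMIs took out 11 barcodes of Control and 1 of PBM. Scrublet (scanpy 1.11.5) marked 128 and 899 doublets, 1.14% and 6.44% against expected rates of 8.98% and 11.2%, and these were left out. Clusters came from 2000 variable genes without the 10 class II genes and H2-Eb2, 30 components (20 on re-clustering), 15 neighbours and Leiden clustering at resolution 1.0 (igraph 0.11.9, seed 0). A name needed at least 3 markers, each at 1.5 times the mean and in 10% of cells; names are rebuilt, not the authors'. Counts were summed per class and library, with exact Poisson, binomial and conditional binomial intervals (scipy 1.17.1), a floor of 3 counts, at least 20 UMIs for a ratio, and TMM factors from edgeR 4.0.16 as an alternative. The calculation of ratios was tested on simulated data. All 10 genes are named; others come from 5 lists, by UMIs or by size of ratio. One gene of these lists is not reported here. The members and lists were chosen with earlier results of these data known. The clusters left out or set apart, and the count of type 1 dendritic cells, were added after seeing the data.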

Additional observations from a re-analysis of the deposited data

How the results depend on the processing

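In B-like cells 0 of the 10 genes passed 2-fold in either direction under these alternatives (TMM factors, a total without the 10 genes, doublets kept, Leiden resolutions 0.5 and 2.0, cells thinned to 1000 UMIs, free RNA subtracted, mixed cells left out, mean over cells, minimums of 100 UMIs and none, and the largest cluster or the Spp1-led sub-cluster alone), while 3 were higher with that sub-cluster left out; the summed log2 ratio ran from -0.08 in that sub-cluster alone to 0.37 with TMM factors. In monocyte-like cells the 1 gene counted as higher became 2 at Leiden resolution 2.0 and with no minimum of UMIs, and 0 after thinning, with free RNA subtracted and at a minimum of 100 UMIs; the summed ratio ran from -0.11 at resolution 2.0, with 41 PBM cells, to 0.63 as a mean over cells. In the pooled dendritic subsets the 2 genes counted as lower became 0 with doublets kept, after thinning and as a mean over cells, and 5 with free RNA subtracted, while 1 gene was higher with doublets kept, at resolution 0.5 and as a mean over cells, against 0; the summed ratio stayed between -1.05 and -0.38. Over all monocyte/macrophage-like cells the 4 higher genes became 2 with free RNA subtracted, and the summed ratio ran from -0.05 to 0.53. Shares over all genes are not given for any of these alternatives, so their counts say nothing of the class II genes against other genes. Where no value shows it, the cause was not tested; the minimum of UMIs acts by changing which genes enter. Too few PBM cells remained for monocyte-like cells with doublets kept (14), at resolution 0.5 (6) and without mixed cells (12), and for dendritic subsets without mixed cells (9); both macrophage classes gave no ratio under the settings as written. No ratio of PBM to Control called with the settings as written changed its sign in monocyte-like, pooled dendritic and all monocyte/macrophage-like cells. B-like cells, the last of the 4 classes for which alternatives were run, had no called ratio with those settings. Their Ciita ratio ran from -0.57 in the Spp1-led sub-cluster alone to 1.85 without that sub-cluster. Plasmacytoid-like and T-like cells and the comparisons within a library have no alternatives. No paired analysis was possible because each group holds 1 library. With 32 PBM monocyte-like and 31 plasmacytoid dendritic-like cells, differences within the intervals given are not detectable at this depth.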
